A study of Homo sapiens with 30 samples.

Results

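A set of 51 interferon response genes was followed by name through RNA sequencing of 3 human cancer cell lines, as 51 of the 30373 genes in the expression table. The genes were taken from a fixed list by symbol, with the OAS family left out, and all 51 had a row. The list was chosen with earlier results of these data known, so its shares beside those of all genes are descriptive. Of the lines, HCT116 and COLO205 derive from colorectal tumours and MDAMB231 from a breast tumour. The drug was ML-792 (labelled ML00754792), an inhibitor of the SUMO-activating enzyme, which starts the attachment of the small protein SUMO to other proteins. For 16 h, all lines were exposed to ML-792 at 500 nM or to its vehicle, 0.01% DMSO, without heat shock. In the 3.5 h experiment HCT116 received 500 nM ML-792 or 0.01% DMSO, each with and without heat shock. The heat-shocked groups had 2 h of drug or vehicle, 0.5 h at 43 °C and 1 h of recovery at 37 °C. The other groups had no heat shock. Each of these 10 groups held 3 libraries, which the labels call biological triplicates. Each line is a single established tumour line, and the labels name no added interferon in any group.

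Interferons are secreted signals that bind receptors at the cell surface and, through the kinases JAK1, JAK2 and TYK2, activate transcription factors of the STAT family. A complex that holds STAT2 and IRF9 binds the interferon-stimulated response element, or ISRE, while other STAT complexes bind the gamma-activated sequence, or GAS. The genes so switched on sense foreign RNA, attach the ubiquitin-like protein ISG15, block viral entry and replication, and present peptides on class I molecules. Many tumour lines keep part of this set on at a low level without added interferon.

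The ISRE is the sequence these genes share most plainly, so it is shown for the 4 genes that were higher after 16 h of ML-792 in all 3 lines (B2M, IFITM3, SAMD9 and TAP1) and for 4 genes among the larger rises of 1 line (IFIT1, IFI6, ISG20 and IFITM1). Promoter sequence came from RefSeq on GRCh38.p14, from 250 bases before to 50 bases after each gene's start, and 41 of the 51 genes had an entry. The motif searched was GAAA, any 2 bases and GAAA again, on either strand, and matches could overlap. It was present in 27 of the 41 promoters (65.9%), against 996 of 27305 promoters of the same length over all genes (3.65%). A match describes the letters only. Only promoters with a match are shown. Among each line's 5 largest rises that passed the test, PARP12 and HERC5 are not shown and also had matches. SAMD9L, CMPK2 and IFI35 had a promoter entry with 0 matches, and IFITM2 and IFIT2 had no entry. Where a promoter held several matches, the one nearest the start is shown. Each 30-base window below is read 5′ to 3′ on the gene's own strand, with the motif in capitals.
B2M: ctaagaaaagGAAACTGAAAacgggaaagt
IFITM3: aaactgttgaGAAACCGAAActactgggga
SAMD9: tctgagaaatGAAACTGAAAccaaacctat
TAP1: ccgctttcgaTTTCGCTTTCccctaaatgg
IFIT1: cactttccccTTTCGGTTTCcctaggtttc
IFI6: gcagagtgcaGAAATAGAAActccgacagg
ISG20: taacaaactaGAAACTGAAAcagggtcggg
IFITM1: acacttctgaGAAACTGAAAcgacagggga

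The B2M window is chr15:44711369-44711398 on the plus strand, with its motif at -138 to -129 from the start. The IFITM3 window is chr11:320876-320905 on the minus strand, with its motif at -35 to -26 from the start. The SAMD9 window is chr7:93118096-93118125 on the minus strand, with its motif at -136 to -127 from the start. The TAP1 window is chr6:32853813-32853842 on the minus strand, with its motif at -128 to -119 from the start, and the motif stands there in the opposite orientation, as it does in IFIT1. The IFIT1 window is chr10:89392510-89392539 on the plus strand, with its motif at -103 to -94 from the start. The IFI6 window is chr1:27672266-27672295 on the minus strand, with its motif at -93 to -84 from the start. The ISG20 window is chr15:88638937-88638966 on the plus strand, with its motif at -69 to -60 from the start. The IFITM1 window is chr11:314024-314053 on the plus strand, with its motif at -6 to 3 from the start, so that its motif crosses the start, while the other 7 lie upstream of it. A GAS letter pattern, TTCNNNGAA, was present in 7 of the 41 promoters (17.1%, against 7.88% of all promoters). The heat shock element pattern (GAA, any 2 bases, TTC, any 2 bases, GAA), searched on both strands, was present in 0 of 41, against 0.487% of all promoters.

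Values were taken as FPKM, fragments per kilobase of transcript scaled to library size. The relative depth read from the lowest values ran from 0.824 to 2.27 times that of 1 reference library. Per library, 29 to 48 of the 51 genes stood at 1 FPKM or above. Same-group replicates correlated at 0.9959 or more (Pearson, log2 scale, across genes). COLO205 had 9 of 11 colorectal epithelial markers at 1 FPKM or more. HCT116 had 5 of 11. Of the intestinal factors, CDX1 was listed at 0 in all HCT116 libraries. CDX2 had means of 5.43 FPKM with ML-792 and 5.87 in DMSO there at 16 h. MDAMB231 had 5 of 7 mesenchymal markers, as HCT116 did at 16 h, with sums of 1290 to 1560 FPKM against 125 to 143. The summed level of 8 leukocyte markers was at most 3.8 FPKM in any library. In bulk RNA, a change in every cell and a change in some of the cells cannot be told apart.

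In DMSO at 16 h the 3 lines held this gene set at different levels, MDAMB231 the highest. The median gene stood at 12.8 FPKM in MDAMB231, 6.08 in COLO205 and 3.42 in HCT116. Below 0.1 FPKM were 9 of the 51 genes in HCT116, 7 in COLO205 and 0 in MDAMB231. Of the 49 genes tested at 16 h (CXCL10 and IFI44L were left out as too low), 39 were higher and 4 lower in MDAMB231 than in HCT116, where 38.1% of all 14251 genes tested were called higher and 45.5% lower (83.6% in all). MDAMB231 exceeded COLO205 at 33 genes and was below it at 13 (41.9% and 44.5% of all genes, 86.4% in all). COLO205 exceeded HCT116 at 31 genes and was below it at 17 (39.4% and 45.5% of all genes, 84.9% in all). The median difference on the log2(FPKM + 1) scale was 1.15 for MDAMB231 against HCT116, 0.91 for MDAMB231 against COLO205 and 0.49 for COLO205 against HCT116, against -0.07, -0.02 and -0.06 over all genes. A gene counted as called when its limma p, adjusted over all genes tested, was below 0.05.

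All genes named next passed the test between lines. BST2 (4.66), XAF1 (4.24), IFI27 (3.24) and SAMD9L (2.73) led the genes higher in COLO205 than in HCT116 on the log2(FPKM + 1) scale, and IFITM2 (-5.69), IFITM3 (-3.83), HERC5 (-2.54) and ISG15 (-2.25) led those lower. Against HCT116, MDAMB231 was highest at BST2 (5.48), IFI27 (5.43), IFIT3 (4.96) and GBP1 (4.17), and its 4 lower genes were IFITM2 (-1.06), USP18 (-0.75), ADAR (-0.46) and IFI6 (-0.27). The IFI6 call was lost under 8 of 15 alternatives, among them both scalings and 5 of the 6 single libraries left out. Against COLO205, MDAMB231 was highest at IFIT1 (5.08), IFITM2 (4.63), IFIT3 (4.47) and IFITM1 (4.33) and lowest at XAF1 (-1.56), USP18 (-1.43), ISG20 (-1.22) and IFI6 (-1.03). Where a line is near 0 the size, and so the order, depends on the constant added before the logarithm. With 0.1 in place of 1, COLO205 against HCT116 gave 7.49 for XAF1, 5.76 for SAMD9L and 5.32 for BST2, and MDAMB231 against HCT116 gave 7.33 for GBP1, 6.51 for IFI27 and 6.14 for BST2. The library values of these genes stand with their role groups below.

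**Figure D1:**
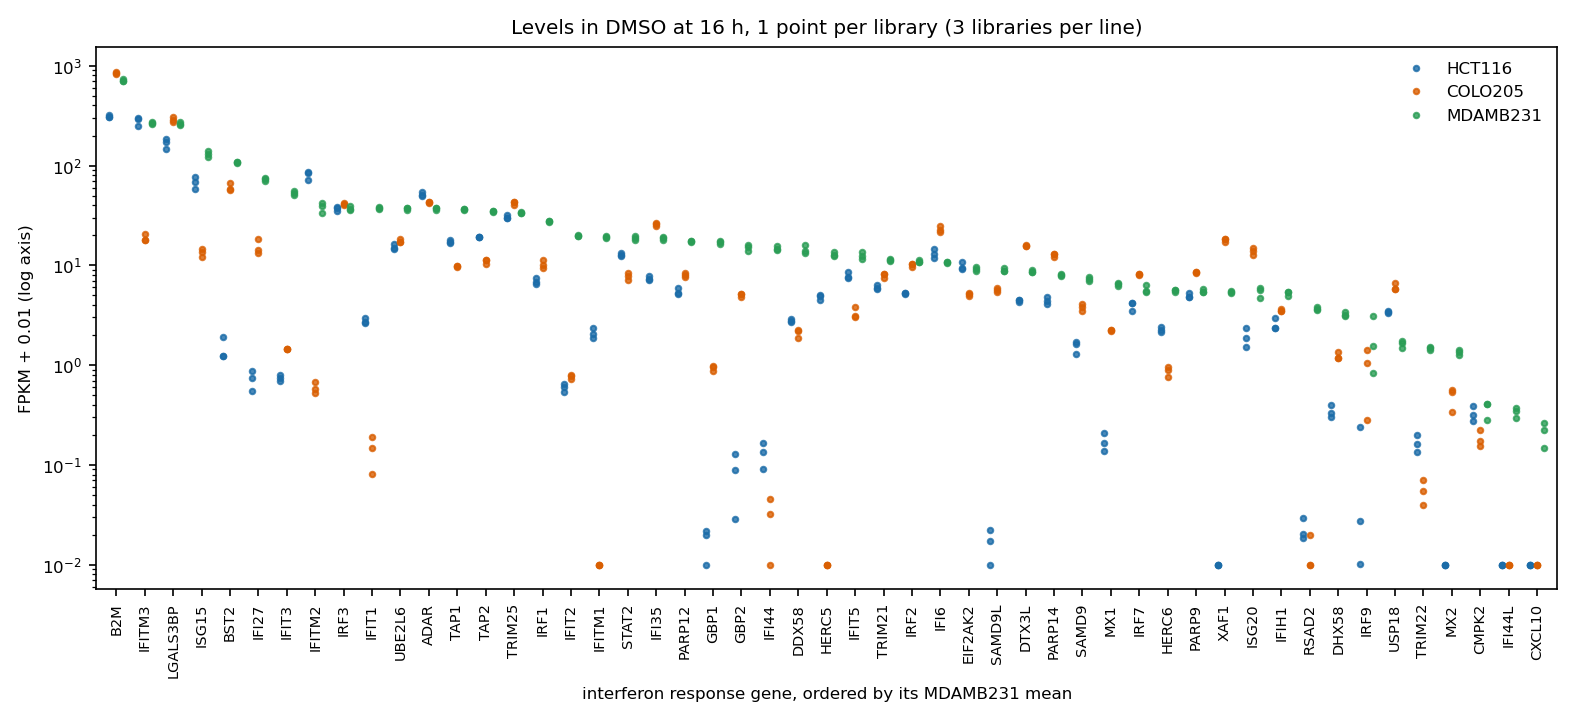
FPKM (plus 0.01, log axis) of each of the 51 genes in DMSO at 16 h, 1 point per library and 3 libraries per line, with genes ordered by their MDAMB231 mean. MDAMB231 points lie at or near the top for most genes, while IFITM2 and IFITM3 in COLO205 and BST2, XAF1 and SAMD9L in HCT116 lie far below the other lines.

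After 16 h of ML-792 the genes that passed the test mostly rose, by small amounts on the log2(FPKM + 1) scale. Of these genes, 4 rose in all 3 lines. In HCT116 10 of 49 genes rose and 0 fell (20.4% higher), where 8.32% of all genes were called higher and 6.42% lower (14.7% in all). In COLO205 19 rose and 4 fell (38.8% and 8.16%), where 19.4% of all genes were called higher and 17.7% lower (37.0% in all). In MDAMB231 21 rose and 0 fell (42.9% higher), where 8.38% of all genes were called higher and 8.48% lower (16.9% in all). The filter used all 18 libraries, so a gene near 0 in a given line was tested there if another line expressed it. In fits of each line's own groups, 6 of 34 genes rose and 0 fell in HCT116. In COLO205 17 of 39 rose and 5 fell, and in MDAMB231 22 of 48 rose and 0 fell. Shares of all genes are not given for those fits, and the shares above belong to the fit of 18 libraries. Whether the members stand out in the separate fits therefore cannot be read from these counts. The median difference over the 49 genes was 0.048 in HCT116, 0.084 in COLO205 and 0.17 in MDAMB231 on the log2(FPKM + 1) scale, against 0.003, 0.005 and 0 over all genes. On this scale 2 genes, IFITM2 and IFI6 in COLO205, reached a difference of 2-fold. The added 1 shrinks the differences of genes near or below 1 FPKM. CMPK2 in COLO205 went from a mean of 0.173 to 1.28 FPKM. With 0.1 added instead, its difference was 2.345 and that of IFITM2 there was 1.77. The genes that rose in all 3 lines were B2M, IFITM3, SAMD9 and TAP1 (4 of 49, against 1.23% of all genes). Of the 49, 0 fell in all 3 (0.821% of all genes) and 15 passed in none (47.8% of all genes). IFI35 alone went both ways, as did 2.74% of all genes: it fell in COLO205 and rose in MDAMB231.

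**Figure D2:**
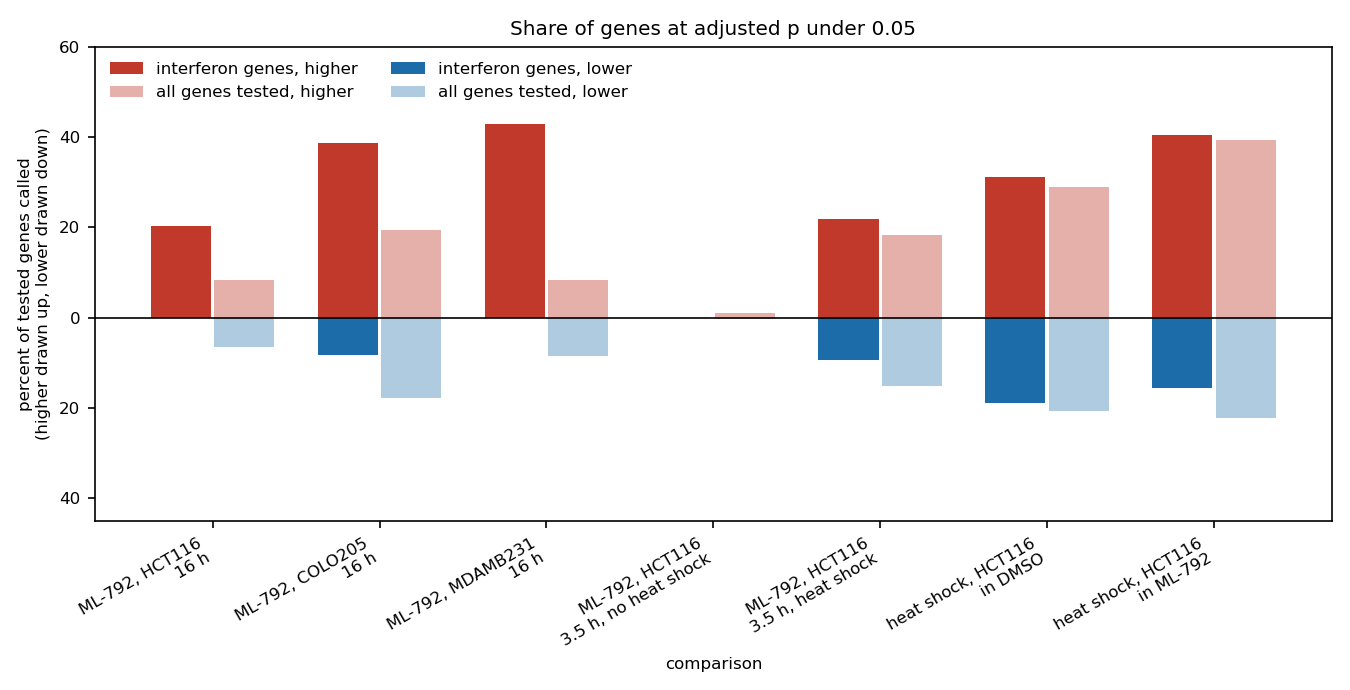
Percent of tested genes at adjusted p under 0.05, drawn up for higher and down for lower, for the interferon response genes (dark bars) and all genes tested (pale bars) in 7 comparisons. The dark upward bars stand above the pale ones after 16 h of ML-792 (20.4% against 8.32% in HCT116, 38.8% against 19.4% in COLO205, 42.9% against 8.38% in MDAMB231), while in the heat shock comparisons they are near each other.

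The size of the ML-792 difference was compared between lines as an interaction. COLO205 and HCT116 differed at 17 of 49 genes, 12 with the more positive difference in COLO205 and 5 in HCT116 (9.66% and 9.75% of all genes, 19.4% in all). That count was 11 when the COLO205 ML-792 library numbered 2 was left out. MDAMB231 and HCT116 differed at 7 genes, 6 more positive in MDAMB231 and 1 in HCT116 (4.93% and 5.84% of all genes, 10.8% in all). MDAMB231 and COLO205 differed at 19 genes, 9 more positive in MDAMB231 and 10 in COLO205 (26.0% of all genes in either direction). Each line's DMSO and ML-792 libraries enter more than 1 of these comparisons.

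**Figure D3:**
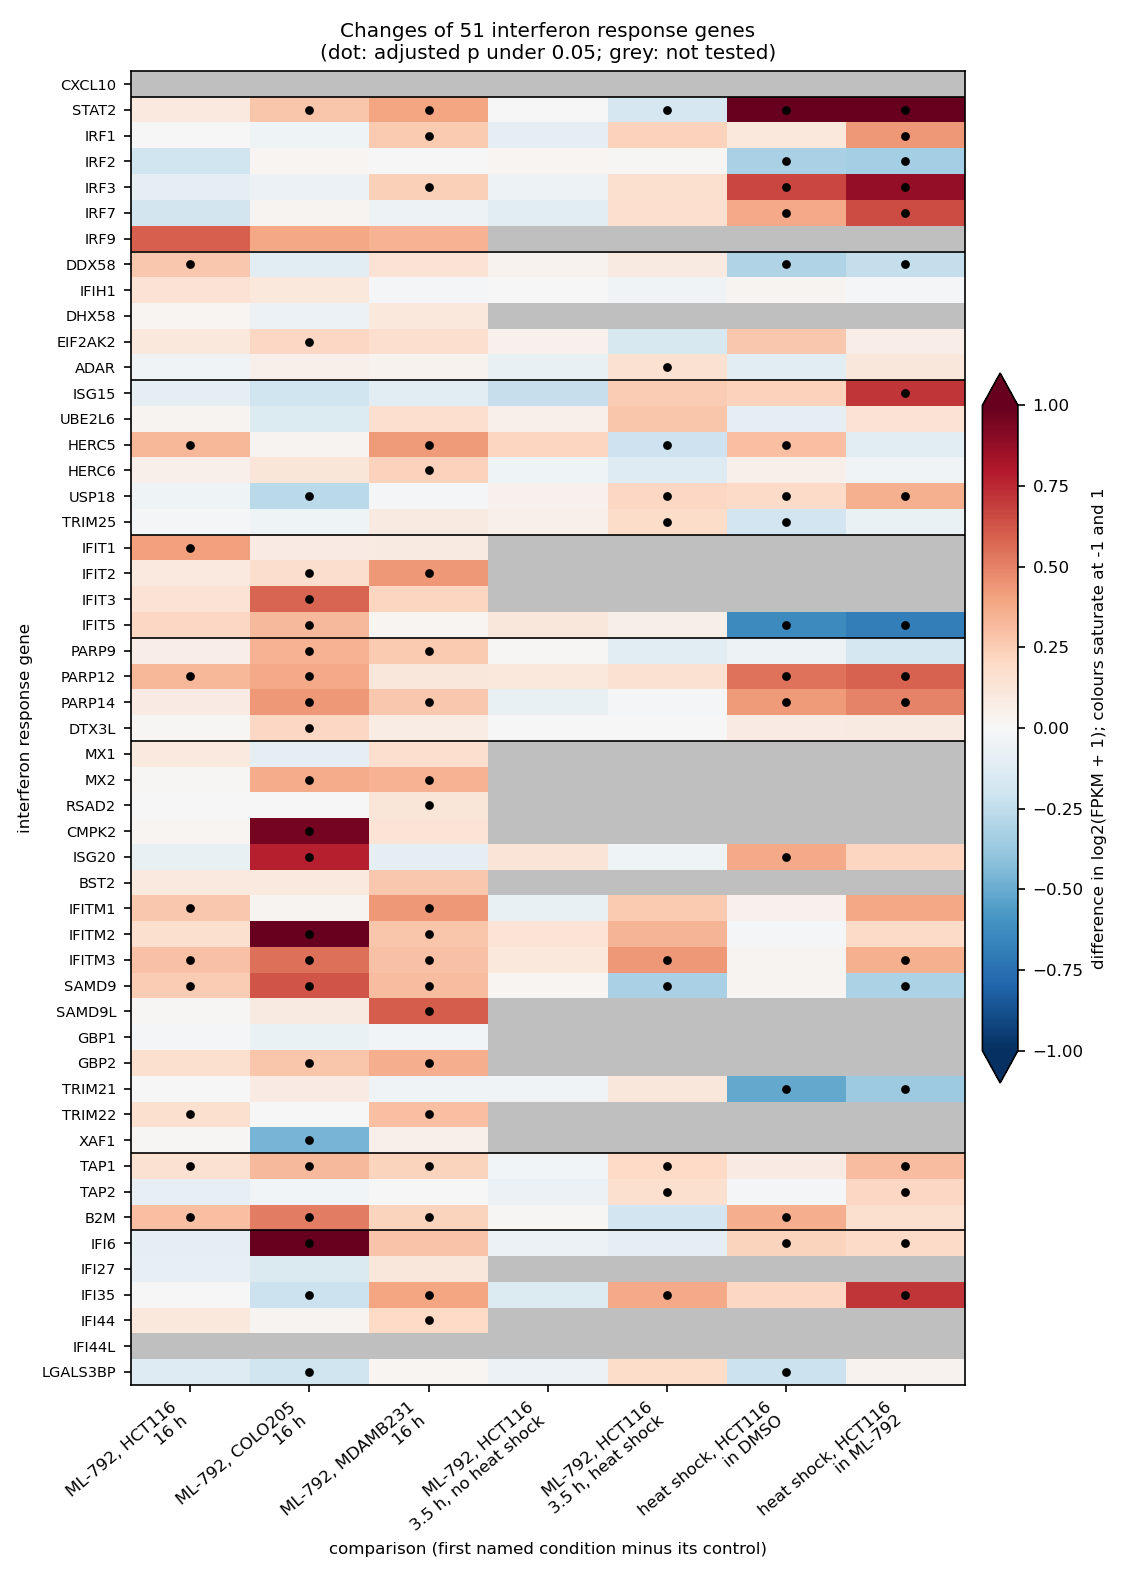
Difference in log2(FPKM + 1) for each of the 51 genes (rows, grouped by role) in 7 comparisons (columns), from blue (lower) to red (higher), with colours saturating at -1 and 1, dots for adjusted p under 0.05 and grey for genes not tested. The dots in the 16 h columns are nearly all on red cells and fall partly on other genes in each line, while the heat shock columns are led by STAT2 at 2.37 and 2.20.

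The chemokine CXCL10, which draws T cells, stayed near 0. It was listed at 0.256, 0.138 and 0.215 FPKM in MDAMB231 DMSO and 0.162, 0.275 and 0.108 with ML-792, and at 0.0251 or less in every library of the other groups. Among the 6 transcription factor genes none passed in HCT116, STAT2 rose in COLO205, and STAT2, IRF1 and IRF3 rose in MDAMB231. Of all genes, 8.32%, 19.4% and 8.38% were called higher in these lines, so the HCT116 and COLO205 counts are near those shares. STAT2 measured 19.5, 18.6 and 17.9 in MDAMB231 DMSO and 23.4, 26.3 and 25 with ML-792, groups that did not overlap (difference 0.40 ± 0.056 SE, adjusted p = 6.77e-05). In COLO205 it went from 7.79 ± 0.63 to 9.65 ± 0.42 (SD, n = 3; difference 0.28 ± 0.056 SE, adjusted p = 0.000868). IRF1, which also acts downstream of interferon gamma, went from 27.7 ± 0.47 to 33.4 ± 0.19 FPKM in MDAMB231 (difference 0.26 ± 0.087 SE, adjusted p = 0.0474). IRF3, which sits upstream of interferon production, went from 37.3 ± 2 to 44.3 ± 3.8 there (difference 0.24 ± 0.057 SE, adjusted p = 0.00683). IRF2 and IRF7 passed in no line. IRF9 had the largest difference in HCT116, 0.60, and did not pass (adjusted p = 0.209). Its libraries were far apart, at 0.0001, 0.0172 and 0.23 FPKM in DMSO and 0.55, 0.332 and 1.11 with ML-792.

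Of the 5 RNA sensor genes 1 rose in HCT116, 1 in COLO205 and 0 in MDAMB231, near the shares of all genes (8.32%, 19.4% and 8.38%). DDX58, which encodes the sensor RIG-I, measured 2.78, 2.71 and 2.92 in HCT116 DMSO and 3.27, 3.52 and 3.98 with ML-792, so that all treated libraries were above all controls (difference 0.27 ± 0.075 SE, adjusted p = 0.0212). In COLO205 it measured 2.19, 1.85 and 2.24 (DMSO) and 1.98, 1.81 and 1.81 (ML-792), with -0.11 as the difference (adjusted p = 0.28). The 2 lines' differences themselves differed by -0.38 (adjusted p = 0.0178), a call lost with 5 added before the logarithm (-0.185) and without the HCT116 ML-792 library numbered 3. EIF2AK2, the kinase PKR, went from 5.1 ± 0.19 to 6.05 ± 0.4 FPKM in COLO205 (difference 0.21 ± 0.062 SE, adjusted p = 0.0142). IFIH1 (MDA5), DHX58 (LGP2) and the RNA-editing enzyme ADAR passed in no line. ADAR was one of the 4 genes lower in MDAMB231 than in HCT116, at 37.1, 37.4 and 36.1 against 54, 50.2 and 49.3 FPKM in DMSO (difference -0.46 ± 0.043 SE, adjusted p = 1.04e-08).

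In the ISG15 system ISG15 itself, its conjugating enzyme UBE2L6 and the ligase TRIM25 passed in no line, whereas HERC5, the main ISG15 ligase in human cells, rose in the 2 lines that expressed it. HERC5 measured 5.07, 4.88 and 4.47 in HCT116 DMSO and 5.95, 6.27 and 6.66 with ML-792 (difference 0.33 ± 0.062 SE, adjusted p = 0.00152). In MDAMB231 it measured 13.5, 12.7 and 12.3 (DMSO) and 15.7, 17.9 and 19.1 (ML-792) (difference 0.42 ± 0.062 SE, adjusted p = 9.74e-05). In both lines every ML-792 library was above every control. In COLO205 HERC5 was listed at 0 in the 3 DMSO libraries and at 0.0166, 0.031 and 0.0146 with ML-792. HERC6, a relative of HERC5, went from 5.58 ± 0.16 to 6.72 ± 0.41 FPKM in MDAMB231 (difference 0.23 ± 0.062 SE, adjusted p = 0.0166). USP18, which removes ISG15 and restrains the type I receptor, fell in COLO205, from 5.82, 6.65 and 5.78 to 5.02, 4.72 and 4.9 (difference -0.27 ± 0.072 SE, adjusted p = 0.00747). It is also the gene of this group held lower in MDAMB231 (1.67, 1.48 and 1.73 in DMSO) than in HCT116 (3.51, 3.32 and 3.43). ISG15 measured 58.7, 67.9 and 76 in HCT116, 12, 14.5 and 13.7 in COLO205 and 122, 132 and 141 in MDAMB231, so the 3 lines did not overlap (COLO205 against HCT116, -2.25 ± 0.09 SE, adjusted p = 9.93e-14).

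The IFIT genes encode proteins that bind foreign RNA. IFIT1 rose in HCT116, where it measured 2.63, 2.96 and 2.68 in DMSO and 3.7, 4.38 and 3.94 with ML-792, with no overlap (difference 0.41 ± 0.055 SE, adjusted p = 6.61e-05). In MDAMB231 it stood at 38.1, 36.5 and 37.4 (DMSO) and 38.2, 41.1 and 40.1 (ML-792), a difference of 0.091 that did not pass (adjusted p = 0.311). In COLO205 it was at most 0.216 FPKM in any library. IFIT2 rose in MDAMB231, from 20.4, 19.8 and 19.9 to 24.8, 29.3 and 28.2 (difference 0.43 ± 0.064 SE, adjusted p = 9.41e-05), and in COLO205, from 0.776, 0.723 and 0.779 to 0.878, 0.903 and 1.2 (difference 0.18 ± 0.064 SE, adjusted p = 0.0366). IFIT3 and IFIT5 rose in COLO205, IFIT3 from 1.45, 1.44 and 1.44 to 2.41, 2.26 and 3.41 (difference 0.58 ± 0.089 SE, adjusted p = 6.71e-05). These levels are low, and IFIT3 in MDAMB231 was far higher in DMSO, at 55.4, 53.4 and 50.6 FPKM, as against 0.741, 0.678 and 0.792 in HCT116 (difference 4.96 ± 0.089 SE, adjusted p = 3.78e-19). IFIT5 went from 3.3 ± 0.42 to 4.36 ± 0.33 FPKM in COLO205 (difference 0.32 ± 0.075 SE, adjusted p = 0.00261).

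All 4 genes of the PARP and DTX3L group rose in COLO205, 2 rose in MDAMB231 and 1 in HCT116 (19.4%, 8.38% and 8.32% of all genes). PARP9 and DTX3L encode partners in an ADP-ribosylation and ubiquitin complex, and PARP12 and PARP14 are mono-ADP-ribosyltransferases. PARP12 rose in HCT116 from 5.18, 5.31 and 5.85 to 7.34, 7.16 and 6.85 (difference 0.33 ± 0.051 SE, adjusted p = 0.00025) and in COLO205 from 7.61, 8.05 and 8.43 to 10.2, 10.8 and 11.2 (difference 0.38 ± 0.051 SE, adjusted p = 1.69e-05), without overlap in either line. PARP14 measured 13.1, 13 and 12.2 in COLO205 DMSO and 17.6, 17.2 and 17.9 with ML-792 (difference 0.43 ± 0.052 SE, adjusted p = 5.54e-06). PARP9 rose by 0.35 and DTX3L by 0.21 on the log2 scale in COLO205 (adjusted p = 0.00058 and 0.00137). In MDAMB231 PARP14 rose by 0.27 and PARP9 by 0.27 (adjusted p = 0.00123 and 0.00985).

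The antiviral effectors were the largest group, with 16 genes tested: 4 rose in HCT116 (8.32% of all genes), 7 rose and 1 fell in COLO205 (19.4% and 17.7%), and 9 rose in MDAMB231 (8.38%). The 3 IFITM genes encode membrane proteins that hinder viral fusion. IFITM3 rose in every line. It measured 251, 291 and 299 (DMSO) and 344, 349 and 335 (ML-792) FPKM in HCT116 (difference 0.29 ± 0.062 SE, adjusted p = 0.00404), 18.1, 17.8 and 20.6 (DMSO) and 27.9, 28.5 and 27.5 (ML-792) in COLO205 (difference 0.55 ± 0.062 SE, adjusted p = 2.5e-06), and 259, 267 and 274 (DMSO) and 349, 314 and 318 (ML-792) in MDAMB231 (difference 0.29 ± 0.062 SE, adjusted p = 0.00274). In each line all 3 treated libraries were above all 3 controls. IFITM2 rose in COLO205, the line that held it lowest, where it measured 0.561, 0.51 and 0.669 in DMSO and 1.93, 2.44 and 2.27 with ML-792 (difference 1.02 ± 0.083 SE, adjusted p = 4.79e-08). In HCT116, where it did not pass, it measured 72, 83.3 and 86.8 (DMSO) and 92.2, 90.2 and 87.2 (ML-792), and in MDAMB231 33.3, 42.5 and 39 (DMSO) and 47.8, 48.2 and 43.3 (ML-792) (difference 0.28 ± 0.083 SE, adjusted p = 0.0295). At this low level the size of the difference in COLO205 depends on the constant added before the logarithm: it was 1.77 with 0.1 and 0.37 with 5 in place of 1. IFITM1 rose in MDAMB231, from 18.8, 19.6 and 19.1 to 26, 26.2 and 26.6 (difference 0.43 ± 0.068 SE, adjusted p = 0.000185), and in HCT116 by 0.27 (adjusted p = 0.0135) with libraries that overlapped, and it was listed at 0 in the 3 COLO205 DMSO libraries. The 3 IFITM genes are close copies, so reads shared between them may have been divided in a way that the table does not show.

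SAMD9 and SAMD9L are neighbouring genes for restriction factors against poxviruses. SAMD9 rose in COLO205 from 4.12, 3.81 and 3.44 to 6.5, 6.21 and 6.49 (difference 0.63 ± 0.072 SE, adjusted p = 3.12e-06), in HCT116 from 1.7, 1.62 and 1.29 to 1.8, 2.05 and 2.2 (difference 0.25 ± 0.072 SE, adjusted p = 0.0254), and in MDAMB231 from 7.55, 7.31 and 7.03 to 8.42, 9.44 and 9.94 (difference 0.30 ± 0.072 SE, adjusted p = 0.00659). The treated and control libraries did not overlap in any of the 3 lines. SAMD9L led the rises in MDAMB231, from 9.33, 8.83 and 8.7 to 13.2, 14.4 and 14.9 (difference 0.61 ± 0.05 SE, adjusted p = 1.38e-07), and measured 5.67, 5.98 and 5.34 (DMSO) and 5.89, 6.17 and 6.23 (ML-792) in COLO205, where it did not pass. Its difference in MDAMB231 exceeded that in COLO205 by 0.52 (adjusted p = 4.74e-05). In HCT116 it was at most 0.019 FPKM at 16 h.

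CMPK2, a mitochondrial nucleotide kinase, and RSAD2, the enzyme viperin, are neighbouring genes. CMPK2 rose in COLO205 from 0.213, 0.143 and 0.163 to 1.19, 1.36 and 1.29 FPKM (difference 0.96 ± 0.049 SE, adjusted p = 9.86e-11), a size that was 2.345 with 0.1 and 0.28 with 5 added before the logarithm, while RSAD2 there was at most 0.0103 in either group. In MDAMB231 RSAD2 measured 3.8, 3.53 and 3.6 (DMSO) and 3.87, 4.01 and 4.26 (ML-792) (difference 0.12 ± 0.039 SE, adjusted p = 0.0455), and CMPK2 0.394, 0.399 and 0.271 (DMSO) and 0.457, 0.536 and 0.474 (ML-792) (difference 0.14, adjusted p = 0.0638). ISG20, a 3′ exonuclease, rose in COLO205 from 15, 13.9 and 12.8 to 32.4, 23.6 and 19.3 (difference 0.78 ± 0.15 SE, adjusted p = 0.000615), with treated libraries above the controls but far apart. It stood at 5.68, 4.67 and 5.87 in MDAMB231 DMSO and 1.5, 1.88 and 2.32 in HCT116 DMSO, and passed in neither.

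MX2, a GTPase that blocks HIV, rose in COLO205 from 0.329, 0.529 and 0.547 to 0.775, 0.808 and 1.12 (difference 0.37 ± 0.068 SE, adjusted p = 0.000371) and in MDAMB231 from 1.26, 1.36 and 1.41 to 2.12, 1.77 and 2.05 (difference 0.35 ± 0.068 SE, adjusted p = 0.00139). Its relative MX1 passed in no line. GBP2 rose by 0.28 in COLO205 and 0.36 in MDAMB231 (adjusted p = 0.00111 and 0.000184), while GBP1, another guanylate-binding protein gene, passed in none. GBP1 was among the genes with the widest range between lines, at 17.3, 16.4 and 17.5 in MDAMB231 DMSO and at most 0.0116 in HCT116 DMSO. TRIM22 rose by 0.16 in HCT116 and 0.30 in MDAMB231 (adjusted p = 0.0125 and 3.53e-05), from means of 0.157 and 1.47 FPKM. TRIM21, an intracellular antibody receptor, passed in no line at 16 h, nor did BST2 (tetherin). BST2 measured 1.22, 1.22 and 1.92 in HCT116, 58.3, 56.7 and 67.2 in COLO205 and 106, 108 and 108 in MDAMB231 (MDAMB231 against HCT116, 5.48 ± 0.12 SE, adjusted p = 1.37e-16).

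XAF1, a promoter of apoptosis, was the gene that fell most with ML-792. In COLO205 it measured 18.2, 18.3 and 17.2 in DMSO and 13, 12.9 and 12.1 with ML-792, with no overlap (difference -0.47 ± 0.043 SE, adjusted p = 2.36e-07). In MDAMB231 it measured 5.41, 5.56 and 5.25 (DMSO) and 5.49, 5.82 and 5.6 (ML-792), where it did not pass, and the 2 lines' differences were 0.52 apart (adjusted p = 9.27e-06). In HCT116 XAF1 was listed at 0 in all 3 DMSO libraries.

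Antigen presentation held 2 of the 4 genes that rose in every line. B2M, the light chain of class I molecules and the most abundant gene of the set, measured 304, 319 and 310.1 (DMSO) and 349, 399 and 408 (ML-792) FPKM in HCT116 (difference 0.30 ± 0.052 SE, adjusted p = 0.000639). It measured 854, 824 and 874 (DMSO) and 1183, 1201 and 1248 (ML-792) in COLO205 (difference 0.51 ± 0.052 SE, adjusted p = 7.62e-07), and 743, 708 and 703 (DMSO) and 792, 872 and 856 (ML-792) in MDAMB231 (difference 0.23 ± 0.052 SE, adjusted p = 0.00526). The groups did not overlap in any line, and the COLO205 difference exceeded the MDAMB231 one by 0.28 (adjusted p = 0.00851). TAP1, a subunit of the peptide transporter that feeds class I molecules, rose from 17.1, 16.7 and 17.8 to 20.1, 18.4 and 19.3 in HCT116 (difference 0.15 ± 0.039 SE, adjusted p = 0.013), from 9.82, 9.9 and 9.64 to 12.2, 12.4 and 12.9 in COLO205 (difference 0.33 ± 0.039 SE, adjusted p = 5.02e-06), and from 36.6, 36.3 and 36.1 to 44, 42 and 42 in MDAMB231 (difference 0.23 ± 0.039 SE, adjusted p = 0.000479). All treated TAP1 libraries were above their controls. Its partner TAP2 passed in no line, at 10.9 ± 0.6 and 10.7 ± 0.18 FPKM (SD, n = 3) in COLO205 DMSO and ML-792.

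Of the 5 tested genes with other or less settled roles, IFI6, a small mitochondrial and endoplasmic reticulum protein, rose in COLO205. It measured 22.5, 21.8 and 24.7 in DMSO and 42.8, 47.7 and 51.9 with ML-792 (difference 1.01 ± 0.11 SE, adjusted p = 2.74e-06), the treated libraries all far above the controls. In HCT116 it measured 12.9, 11.8 and 14.6 (DMSO) and 14, 11.8 and 10.8 (ML-792), and in MDAMB231 10.4, 10.9 and 10.8 (DMSO) and 16.4, 11.7 and 12.2 (ML-792), where it did not pass. IFI35, a partner of the transcription regulator NMI, fell in COLO205 from 24.5, 26.3 and 25.6 to 21.4, 22.2 and 21.8 (difference -0.22 ± 0.05 SE, adjusted p = 0.00263) and rose in MDAMB231 from 18.6, 19.1 and 17.9 to 25.6, 25.6 and 23 (difference 0.40 ± 0.05 SE, adjusted p = 1.9e-05). The gap between those 2 differences was 0.61 (adjusted p = 7.37e-06). IFI44 rose in MDAMB231 by 0.20 (adjusted p = 0.00747) from a mean of 14.8 FPKM, and the secreted glycoprotein gene LGALS3BP fell in COLO205 by 0.20 (adjusted p = 0.0387). IFI27 passed in no line, and ranged in DMSO from 0.545, 0.731 and 0.867 in HCT116 and 13.2, 14.3 and 18.5 in COLO205 to 75.5, 69.3 and 74.1 in MDAMB231. IFI44L was at 0.568 FPKM or less in every library.

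**Figure D4:**
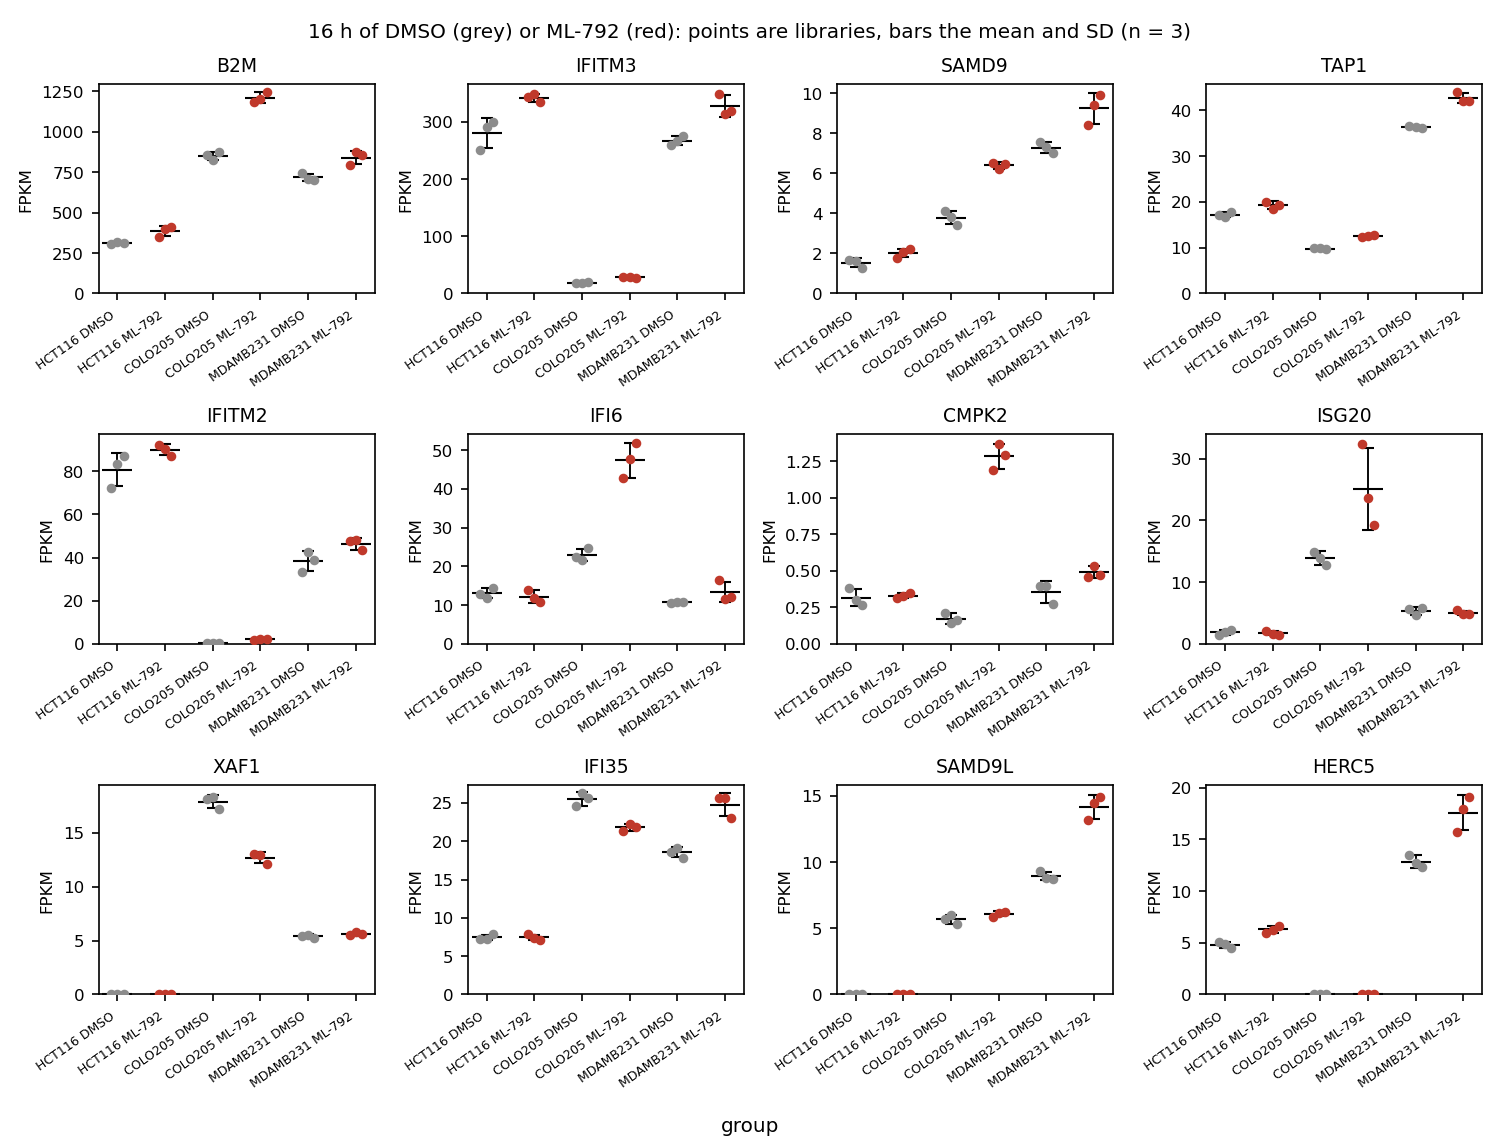
FPKM of 12 of the genes at 16 h in the 6 groups, with points for libraries (DMSO grey, ML-792 red) and black marks for the mean and SD (n = 3). The top row (B2M, IFITM3, SAMD9, TAP1) shows red above grey in every line, IFITM2, IFI6, CMPK2 and ISG20 rise in COLO205, XAF1 falls there, and SAMD9L and HERC5 rise in MDAMB231.

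The rest of the pathway, 51 further genes listed by step, had 42 tested at 16 h: 5 rose and 0 fell in HCT116 (8.32% and 6.42% of all genes), 11 rose and 6 fell in COLO205 (19.4% and 17.7% of all genes), and 6 rose and 1 fell in MDAMB231 (8.38% and 8.48% of all genes). The COLO205 counts are near the shares of all genes. Of 10 interferon genes, 1 was tested. IFNE, a type I interferon of epithelia, rose in HCT116 from 1.02, 0.619 and 0.815 to 1.27, 1.47 and 1.34 FPKM (difference 0.38 ± 0.088 SE, adjusted p = 0.007), and IFNB1, IFNG and the others had means of 0.238 FPKM or less in every group. Of 6 receptor genes IFNAR1 rose in HCT116 (0.27, adjusted p = 0.000807) and COLO205 (0.18, adjusted p = 0.0066), IL10RB rose in HCT116, and IFNGR1 fell in COLO205 by 0.30 (adjusted p = 0.00208). JAK1, JAK2, TYK2 and STAT3 passed in no line.

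Of 10 inhibitors of the pathway 1 rose and 4 fell in COLO205 (19.4% and 17.7% of all genes), where SOCS3 fell by 0.68, PIAS3 by 0.41, SOCS1 by 0.38 and PTPN2 by 0.24 (adjusted p = 0.00558, 6.41e-06, 0.00637 and 0.00133). In MDAMB231 1 fell (PTPN1) and in HCT116 0 passed. Among 8 genes that lead to interferon production, the RNA receptor TLR3 rose in COLO205 by 0.61 (adjusted p = 1.5e-05), the signalling adaptor TRAF3 fell there by 0.25 (adjusted p = 0.00251) and STING1 (listed as TMEM173) rose in MDAMB231 by 0.32 (adjusted p = 0.00307). The class I processing list beside B2M, TAP1 and TAP2 had 12 genes: 2 rose in HCT116, 7 in COLO205 and 5 in MDAMB231 (8.32%, 19.4% and 8.38% of all genes), and 0 fell. HLA-B rose in all 3 lines, by 0.57, 0.20 and 0.34 in HCT116, COLO205 and MDAMB231 (adjusted p = 1.6e-05, 0.0283 and 0.0016). The peptidase ERAP2 rose by 0.65 and the immunoproteasome subunit PSMB9, whose gene starts beside TAP1, by 0.45 in COLO205 (adjusted p = 3.3e-07 and 6.37e-05). The class I heavy chain genes are close copies and polymorphic, so their levels are less certain.

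Set against the promoter motif, the genes called higher in HCT116 were 8 of the 25 tested genes with an ISRE match and 1 of the 14 without. In COLO205 they were 12 of 25 and 3 of 14, and in MDAMB231 8 of 25 and 7 of 14. Of all genes tested, 8.32% were called higher in HCT116, 19.4% in COLO205 and 8.38% in MDAMB231. The genes without a match were near those shares in HCT116 and COLO205. The median differences with and without a match were 0.102 and 0.014 in HCT116, 0.105 and 0.024 in COLO205, and 0.171 and 0.198 in MDAMB231. The other genes had no promoter entry or were not tested. These are counts only, and the motif's part was not tested.

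At 3.5 h without heat shock, 0 of the 32 genes tested in HCT116 passed with ML-792 (limma; 1 had an unadjusted p below 0.05), where 1.02% of all 12191 genes were called higher and 0.189% lower (1.21% in all). The other 19 genes were too low to test. The median difference was 0 over the 32 genes and -0.001 over all genes. B2M measured 274, 280.4 and 282 FPKM in DMSO and 274, 291 and 279 with ML-792, IFITM3 218, 205 and 219 (DMSO) and 231, 237 and 221 (ML-792), and TAP1 13.3, 12.8 and 12.6 (DMSO) and 12.4, 12.1 and 13.4 (ML-792). The B2M and TAP1 groups overlapped, and each ML-792 library of IFITM3 lay slightly above the controls. The largest differences were those of ISG15 (-0.23) and HERC5 (0.21), with adjusted p = 0.891 and 0.378.

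Of 34 genes tested for a different ML-792 effect at 16 h and at 3.5 h in HCT116, B2M passed (1.12% of all 12462 genes were called higher and 1.28% lower, 2.40% in all). The difference was 0.30 at 16 h, and the effects were 0.29 apart (adjusted p = 0.0477). The B2M call was lost when 11 of the 12 libraries were left out singly, and also without the trend and robust steps and with no filter. Over all 20 alternatives its adjusted p ran from 0.00138 to 0.137. The 16 h and 3.5 h libraries carry identifiers of separate number series, so time and any difference between those series cannot be told apart.

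Heat shock changed 16 of the 32 tested genes in DMSO and 18 under ML-792, in both directions, and STAT2 stood far ahead of the rest. In DMSO 10 of 32 genes rose and 6 fell (31.2% and 18.8%), where 28.9% of all genes were called higher and 20.6% lower (49.5% in all). Under ML-792 13 rose and 5 fell (40.6% and 15.6%), where 39.3% of all genes were called higher and 22.3% lower (61.7% in all). Both shares are close to those of all genes. The split depended on the scaling: with every library brought to an equal total, 4 rose and 11 fell in DMSO and 6 rose and 12 fell under ML-792, and the median of all genes moved from 0.05 to -0.19 and from 0.10 to -0.18. Heat-shocked libraries had FPKM totals of 608100 to 732300, against 553000 to 576000 without heat shock, and mitochondrial shares of 9.05% to 10.1% against 11.5% to 12%. The 2 sets carry identifiers of separate number series, so heat shock and that difference cannot be told apart. The summed level of 5 fibroblast markers lay between 1.55 and 1.69 FPKM without and between 13.2 and 18.3 with heat shock. COL1A1 alone carries this sum, with means of 1.59 and 14.6 in DMSO, while COL1A2, DCN, LUM and PDGFRB had means of 0.212 or less. Its part in these results was not tested.

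STAT2 measured 6.35, 6.03 and 6.27 FPKM in DMSO without heat shock and 35.9, 35.3 and 37.4 with it (difference 2.37 ± 0.052 SE, adjusted p = 2.81e-12). Under ML-792 it measured 6.31, 6.18 and 6.08 (no heat shock) and 32.4, 33.6 and 30.2 (heat shock) (difference 2.20 ± 0.052 SE, adjusted p = 6.01e-12). The lowest heat-shocked library lay far above the highest unshocked one in both arms. STAT2 had a promoter entry with 0 ISRE, 0 GAS and 0 heat shock element matches. Its neighbours on the chromosome, chosen after values were seen, also differed: PAN2 averaged 5.54 FPKM without and 14.03 with heat shock in DMSO, and IL23A 0.257 and 0.914, while TIMELESS averaged 30.9 and 33.3.

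Among the other transcription factors IRF3 rose, from 24.4, 24.8 and 23.9 to 34.7, 37.8 and 46.1 in DMSO (difference 0.67 ± 0.085 SE, adjusted p = 3.67e-05) and from 23.6, 23.5 and 23.4 to 42.5, 47.7 and 42.3 under ML-792 (difference 0.88 ± 0.085 SE, adjusted p = 2.72e-06). IRF7, the amplifier of type I interferon production, rose by 0.38 and 0.66 (adjusted p = 0.00622 and 0.000108). IRF2, which can repress interferon genes, fell from 2.22, 2.1 and 2.17 to 1.33, 1.77 and 1.49 in DMSO (difference -0.33 ± 0.073 SE, adjusted p = 0.00265) and by 0.34 under ML-792 (adjusted p = 0.0016). PARP12 rose from 5.17, 4.78 and 4.9 to 7.52, 7.33 and 8.16 (difference 0.54 ± 0.054 SE, adjusted p = 4.61e-06), and by 0.59 under ML-792, and PARP14 rose by 0.43 and 0.49. The groups of these 3 genes (IRF3, IRF2 and PARP12) did not overlap in DMSO.

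IFIT5 fell the most, from 13, 12.6 and 13.4 to 8.8, 7.59 and 7.77 in DMSO (difference -0.63 ± 0.068 SE, adjusted p = 8.27e-06) and from 14.9, 13.7 and 14 to 9.18, 8.16 and 7.92 under ML-792 (difference -0.69 ± 0.068 SE, adjusted p = 3.12e-06). TRIM21 fell from 5.45, 4.72 and 5.1 to 3.26, 3.1 and 3.43 in DMSO (difference -0.51 ± 0.088 SE, adjusted p = 0.000411) and from 4.63, 5.33 and 4.85 to 3.71, 4.19 and 3.01 under ML-792 (difference -0.36 ± 0.088 SE, adjusted p = 0.00341). DDX58 fell by 0.30 and 0.24 in the 2 arms. Each heat-shocked IFIT5 and TRIM21 library was below each unshocked one. Under ML-792 IFI35 rose from 3.33, 4.42 and 3.81 to 6.04, 8.43 and 6.54 (difference 0.72 ± 0.12 SE, adjusted p = 0.000217), ISG15 by 0.71 and USP18 by 0.35 (adjusted p = 0.000594 and 0.000395), while IFI35 in DMSO measured 4.17, 4.59 and 4.14 (no heat shock) and 4.36, 5.28 and 5.78 (heat shock) and did not pass. The falls of IFIT5, TRIM21 and IRF2 and the rises of STAT2, IRF3, PARP12 and (under ML-792) IFI35 passed under every alternative run on them, but several sizes moved by over 1.5 times. Under equal totals IRF3 was 0.40 and PARP12 0.31 in DMSO, IFI35 0.44 and TRIM21 -0.63 under ML-792, IRF3 0.56 and IRF2 -0.55 under ML-792, and IRF2 -0.50 in DMSO. With GC and length trends removed IFI35 was 0.34, IRF2 in DMSO -0.55 and TRIM21 -0.64 under ML-792, and IFIT5 there was -0.41. With 5 added before the logarithm, IRF2 was -0.13 and -0.14 and TRIM21 -0.29 and -0.20 in DMSO and ML-792.

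**Figure D5:**
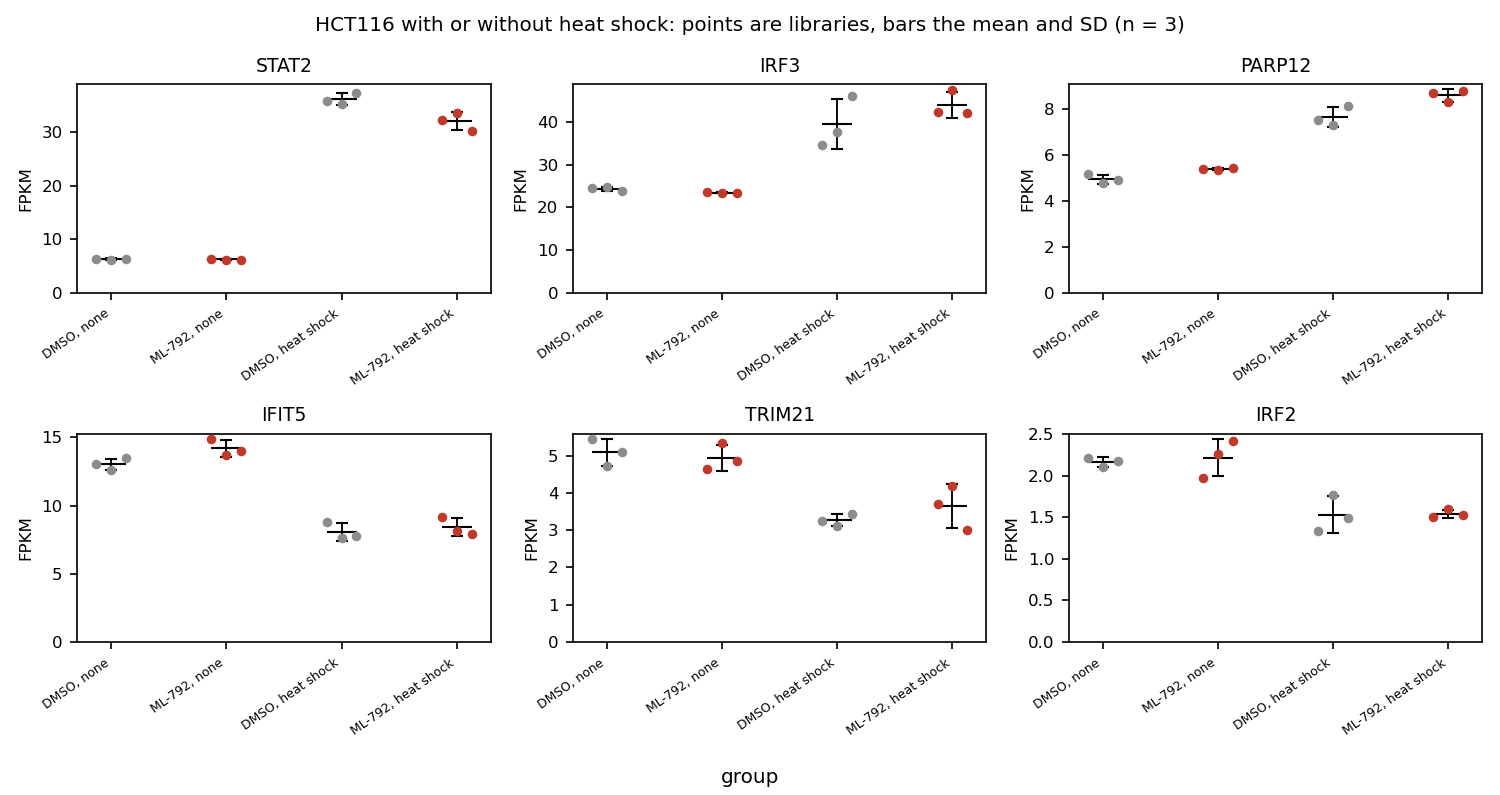
FPKM of 6 genes in HCT116 at 3.5 h, without and with heat shock, in DMSO (grey) and ML-792 (red), with points for libraries and black marks for the mean and SD (n = 3). STAT2 rises from about 6.21 to 36.2 FPKM in DMSO, IRF3 and PARP12 rise less, and IFIT5, TRIM21 and IRF2 fall.

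Within heat-shocked cells ML-792 gave 7 higher and 3 lower genes of 32, where 18.4% of all genes were called higher and 15.1% lower (33.5% in all). IFITM3 measured 197, 207 and 255 FPKM in DMSO and 268, 357 and 268 with ML-792 (difference 0.43 ± 0.11 SE, adjusted p = 0.0145), and IFI35 4.36, 5.28 and 5.78 (DMSO) and 6.04, 8.43 and 6.54 (ML-792) (difference 0.38 ± 0.12 SE, adjusted p = 0.0284). USP18 measured 3.4, 3.4 and 3.87 (DMSO) and 4.14, 4.49 and 4.13 (ML-792) (difference 0.21 ± 0.063 SE, adjusted p = 0.0259). In all 3 of these genes the ML-792 libraries were above the controls. TAP1 rose from 12.8, 13.9 and 14.6 to 15.6, 17.4 and 14.9 (difference 0.20 ± 0.068 SE, adjusted p = 0.0383), TRIM25 from 38.9, 37.1 and 35 to 44.5, 41.8 and 39.8 (difference 0.18 ± 0.057 SE, adjusted p = 0.0299), and TAP2 and ADAR by 0.16 and 0.15. SAMD9 measured 2.03, 1.82 and 1.35 (DMSO) and 1.39, 0.835 and 1.35 (ML-792) (difference -0.32 ± 0.1 SE, adjusted p = 0.0352), HERC5 4.3, 5.16 and 5.08 (DMSO) and 4.39, 3.68 and 4.13 (ML-792) (difference -0.20 ± 0.074 SE, adjusted p = 0.0491) and STAT2 fell by 0.17 (adjusted p = 0.0281). The SAMD9 and HERC5 groups overlapped. Each of the 8 genes given here with a p lost its call under at least 1 alternative: TAP1 under 9 of 15, TRIM25 under 8 of 15, HERC5 under 8 of 14, SAMD9 and USP18 under 7 of 14, IFI35 under 6 of 15, STAT2 under 4 of 15 and IFITM3 under 2 of 15. With GC and length trends removed, TAP1 was 0.044, TRIM25 0.071 and SAMD9 -0.098. The count of 10 was 0 without the DMSO heat shock library numbered 2, 2 without the ML-792 heat shock library numbered 2, and 0 in a fit of these 6 libraries alone. Under equal totals 2 rose and 3 fell, and with median-of-ratios scaling 2 rose and 4 fell. Shares of all genes are not given for these alternatives, so a shift of the members alone cannot be told from one of all genes.

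The effect of ML-792 with heat shock was compared with that without as an interaction, in which HERC5 passed (0 higher and 1 lower of 32; 2.48% and 3.93% of all genes, 6.41% in all). HERC5 measured 3.67, 3.8 and 3.74 (DMSO) and 4.5, 4.78 and 4.2 (ML-792) without heat shock and the values above with it, and the 2 differences were -0.42 apart (adjusted p = 0.0401). Leaving out single libraries gave 0 to 6 calls, with 6 without the DMSO heat shock library numbered 3, and the HERC5 call was lost under 11 of 19 alternatives. Of the 51 pathway genes 37 were tested at 3.5 h. Without heat shock ML-792 changed 0 of them, and under heat shock 9 rose and 5 fell (18.4% and 15.1% of all genes). Heat shock raised 12 and lowered 6 in DMSO (28.9% and 20.6% of all genes), and raised 17 and lowered 7 under ML-792 (39.3% and 22.3% of all genes), which is near the shares of all genes. TICAM1 and MAVS, both adaptors upstream of IRF3, led in opposite directions in DMSO: TICAM1 rose by 0.81 and MAVS fell by 0.72 (adjusted p = 4.82e-06 and 1.21e-06).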

How the data were processed

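RNA from 30 libraries (10 groups of 3) was sequenced after TruSeq Stranded mRNA preparation, per the labels. The deposited table gives 1 value per gene and library, which the authors normalized as FPKM; the header names no unit, and FPKM was read from the values. DESeq2 1.10.1 appears in the submitters' processing notes with no stated role. Which aligner, build and gene annotation were used is not given in the sources used here. Groups came from the labels.

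With R 4.3.3 and limma 3.58.1, log2(FPKM + 1) was fitted (eBayes with trend and robust) for every gene that reached 1 FPKM in 3 or more libraries. The 16 h fit held 18 libraries, the 3.5 h fit 12 and the comparison of times 12. P-values were adjusted by Benjamini-Hochberg over all genes tested. The scripts were tested on simulated data first. Tables were handled with python 3.11.15, pandas 2.3.3 and numpy 2.4.6. FPKM keeps no read counts, so no count test was run, and depth is known only relative to other libraries.

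Library values were given for up to 5 rises and 3 falls in each ML-792 comparison, 3 and 3 with heat shock and for interactions, and 4 and 4 between lines. The members and the pathway and marker lists were chosen with earlier results of these data known. Alternatives were another pseudocount (0.1 or 5), no filter or 5 FPKM, median-of-ratios scaling, equal totals, no trend or robust step, fits on the compared groups alone, each library left out and, chosen after seeing the data, removal of trends on GC content and length. The luminal breast and endothelial marker lists had 1 to 3 of 4 and 0 of 3 genes at 1 FPKM. The values of 1 gene counted in the pathway totals are not reported here.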

Additional observations from a re-analysis of the deposited data

Results flagged for a closer look

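The size of the ML-792 difference was itself different between lines, times or heat shock states for 18 values, each tested as an interaction in limma with Benjamini-Hochberg adjustment over all genes. All are differences of differences on the log2(FPKM + 1) scale, and the lines' libraries are shared between them.

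Between COLO205 and HCT116 at 16 h, the ML-792 difference was larger in COLO205 by 1.11 for IFI6 (adjusted p = 0.000102), by 0.943 for CMPK2 (adjusted p = 3.44e-08) and by 0.866 for IFITM2 (adjusted p = 5.44e-05). It was lower in COLO205 for XAF1 (-0.479, adjusted p = 2.57e-05), DDX58 (-0.377, adjusted p = 0.0178) and IFIT1 (-0.33, adjusted p = 0.00677). With 5 in place of 1 added before the logarithm the IFITM2 value fell to 0.22 and its call was lost (adjusted p = 0.127), and the CMPK2 value was 0.276, against 2.29 with 0.1. The DDX58 call was lost under 2 of 21 alternatives (5 added, -0.185, and without the HCT116 ML-792 library numbered 3) and the IFIT1 call under 1 of 21 (0.1 added, -0.127, adjusted p = 0.696). XAF1 was listed at 0 in HCT116 DMSO and IFIT1 was near 0 in COLO205. CMPK2 was too low in HCT116 to be tested in the comparison of times. Its ML-792 difference was 0.016 in HCT116 and 0.959 in COLO205, so its value largely restates the COLO205 difference.

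Between MDAMB231 and HCT116 it was larger in MDAMB231 for SAMD9L (0.599, adjusted p = 2.26e-05), IFI35 (0.398, adjusted p = 0.00122) and IFIT2 (0.339, adjusted p = 0.0206), and lower for IFIT1 (-0.322, adjusted p = 0.0124). SAMD9L was near 0 in HCT116, with a mean of 0.0065 FPKM in DMSO and a difference of 0.009. Its value therefore restates the MDAMB231 difference of 0.607. IFIT2 was also too low in HCT116 to be tested in the comparison of times. The IFIT2 difference was 0.095 in HCT116 and 0.434 in MDAMB231, so a low level in HCT116 limits how its value can be read. The IFIT1 call was lost under 2 of 21 alternatives (0.1 or 5 added, -0.429 and -0.132). The IFIT2 call was lost under 3 of 21 (0.1 added, 0.239, and without the HCT116 ML-792 library numbered 3 or the MDAMB231 ML-792 library numbered 2). Between MDAMB231 and COLO205 it was larger in MDAMB231 for IFI35 (0.613, adjusted p = 7.37e-06), SAMD9L (0.517, adjusted p = 4.74e-05) and XAF1 (0.516, adjusted p = 9.27e-06). It was lower there for ISG20 (-0.867, adjusted p = 0.00591), CMPK2 (-0.822, adjusted p = 1.65e-07) and IFITM2 (-0.746, adjusted p = 0.000176). With 5 added the IFITM2 call was lost (-0.118, adjusted p = 0.411), and CMPK2 was -0.244, against -1.96 with 0.1.

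In HCT116 at 3.5 h the ML-792 difference of HERC5 was lower with heat shock than without (-0.417, adjusted p = 0.0401), and that of B2M was larger at 16 h than at 3.5 h by 0.291 (adjusted p = 0.0477). These calls were lost under 11 of 19 and 13 of 20 alternatives.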

How the results depend on the processing

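No paired analysis was possible because groups share no replicate numbers in the labels. Of 80 named gene and comparison pairs, 63 kept their call under every alternative, 17 lost it under at least 1 and 0 reversed. Of 133 alternative counts other than those with a library left out, 114 were within 1.5 times the reported one. Fits on the compared groups alone gave 6 calls of 34 genes tested in HCT116 at 16 h and 11 of 43 for the COLO205 and HCT116 difference of effects. They gave 1 of 30 for ML-792 at 3.5 h and 0 of 32 for ML-792 under heat shock. Shares of all genes are not given for these fits, so the counts cannot be set against all genes. The cause of these shifts was not tested. For ML-792 under heat shock, equal totals gave 5, median-of-ratios 6, no filter 5 and GC and length removal 4. The heat shock by ML-792 interaction gave 0 under equal totals, 5 FPKM, no filter and GC and length removal. Heat shock in DMSO gave 9 with the 5 FPKM filter, where fewer genes are tested. The comparison of times gave 0 without trend and robust steps, 0 with no filter and 4 with GC and length removal. A pseudocount of 0.1 gave 11 for the COLO205 and HCT116 effects and 4 for MDAMB231 and HCT116, where GC and length removal gave 12.

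With libraries left out singly, the calls were 7 to 12 in HCT116, 20 to 23 in COLO205 and 18 to 20 in MDAMB231 at 16 h. Differences of effects gave 11 to 15 (COLO205 and HCT116), 5 to 8 (MDAMB231 and HCT116) and 14 to 18 (MDAMB231 and COLO205). At 3.5 h they were 0 to 0 for ML-792 alone, 0 to 12 under heat shock, 13 to 16 for heat shock in DMSO, 15 to 20 under ML-792, 0 to 6 for the interaction and 0 to 1 for time. DMSO levels gave 45 to 47, 42 to 44 and 45 to 47. FPKM do not give read counts, so the counting error of low genes is unknown.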
